A study of Saccharomyces cerevisiae with 72 samples.

Results

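The end of chromosome replication was followed in budding yeast (Saccharomyces cerevisiae, W303 background, MATa) as valleys, stretches of DNA still at a lower copy number at 50, 60 or 70 minutes after release from G1 than at 80 minutes in the same strain. A valley was a run of at least 5 adjacent 1-kb bins whose level was below 0.90 of the 80-minute level. The 16 libraries from 50 to 80 minutes in 4 strains, of 72 samples in the series, gave 339 valleys, of which 180 lay in 1 strain, called D.

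Strain D carried PPH3-AID and sld3-R(2A)-13myc, strain C carried PPH3-AID and SLD3-13myc, strain B carried sld3-R(2A)-13myc without PPH3-AID, and strain A carried SLD3-13myc without PPH3-AID. Every strain, A included, was also swe1delta::TRP1, had CDC55-AID and his3::PGPD1-osTir1, and had CSE4-HA6 at leu2 in place of the deleted CSE4. Strain A is therefore the control for PPH3-AID and for the sld3 allele, and no strain here was without CDC55-AID. Cells were held in G1 with alpha factor, given the auxin IAA during a shift to a higher temperature, and released into medium with IAA. Each strain and minute had 1 library, so no difference between strains or minutes could be tested, and none has a replicate check. The bins of 1 library share its DNA and are not replicates.

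In budding yeast, replication forks start at many origins along each chromosome, some early and some late in S phase, and run until they meet. DNA far from an active origin, or next to late ones, is copied last. Sld3 is needed to start replication at origins, Pph3 is the catalytic subunit of the phosphatase PP4, and Cdc55 is a regulatory subunit of the phosphatase PP2A. The OsTir1 protein, made here from the GPD1 promoter, directs AID-tagged proteins to degradation when auxin is present.

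The authors' ratio of S-phase to G1 DNA was divided by the median of its library, averaged over 5 kb and divided by the same measure at 80 minutes. The result is called the relative level below. If all DNA is replicated at 80 minutes and the median bin is replicated at the earlier minute, a relative level of 1.0 stands for replicated and 0.5 for unreplicated DNA. On that reading no bin should exceed 1.0 by more than noise, yet 28.4% of bins were above 1.11 in D at 50 minutes. The reading therefore does not hold for D at 50 minutes, where levels show only differences along the genome. In the other libraries from 50 to 70 minutes at most 0.604% of bins were above 1.11. That does not by itself show that their median bin was replicated, and the reading was not otherwise tested there. The deposited scale factor, by which the authors multiplied the ratios of a library, was 1.752, 1.843, 2.0 and 1.98 in strain D at 50, 60, 70 and 80 minutes, against 1.953, 1.979, 2.0 and 1.932 in strain A. The factors of strain C were 1.894, 1.988, 2.0 and 1.912, and those of strain B were 1.823, 1.921, 2.0 and 2.0. Sequencing depth is unknown, as the tables hold no counts. The estimated noise of the relative level was 0.0221 to 0.0287 over these libraries. It was taken from differences between neighbouring 1-kb bins before averaging and scaled to a 5-kb mean, treating bins as independent.

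At 50 minutes 32.5% of the 11260 bins were below 0.90 in strain D, 12.4% in C, 14.5% in B and 2.66% in A. At 60 minutes the shares were 14.9% in D, 0.0355% in C, 0.311% in B and 0.00888% in A, the last being 1 bin. At 70 minutes they were 1.74% in D, 0.24% in C, 0.00888% in B and 0.00888% in A. Strain D thus held more DNA below the limit at 60 minutes than C, B or A did at 60 or 70 minutes. With the library median as the scale, the share of D at 60 minutes was close to those of C and B at 50 minutes. The limit cut through a continuous spread of levels: in D at 60 minutes 441 bins lay within 0.02 below it and 476 within 0.02 above it.

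**Figure D1:**
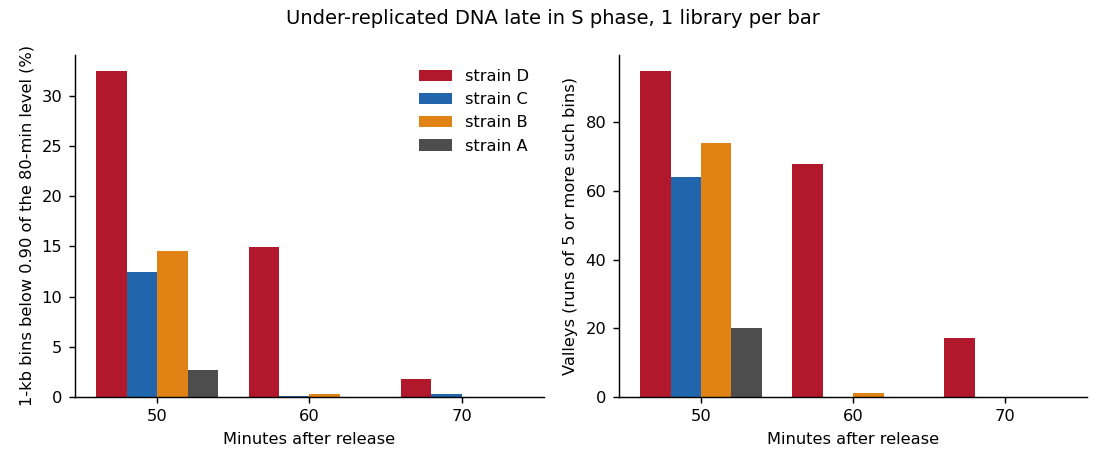
Share of 1-kb bins below 0.90 of the 80-minute level (left, % of 11260 bins) and number of valleys (right) at 50, 60 and 70 minutes after release in strains D, C, B and A, 1 library per bar and so no error bars. Strain D had 68 valleys at 60 minutes and 17 at 70 minutes, while C, B and A had 0, 1 and 0 at 60 minutes and none at 70 minutes.

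These bins formed 95 valleys in D, 64 in C, 74 in B and 20 in A at 50 minutes. At 60 minutes there were 68 in D, 0 in C, 1 in B and 0 in A, and at 70 minutes 17 in D and 0 in each of C, B and A. The valleys of D at 50 minutes were also wider than those of C, B and A at that minute. At 50 minutes their median width was 24 kb in D, 13 kb in C, 16.5 kb in B and 8 kb in A, and the widest measured 164 kb in D, 55 kb in C, 58 kb in B and 30 kb in A. Valleys over 40 kb numbered 30 in D, 9 in C, 8 in B and 0 in A. In C and B at 45 minutes, with 30.7% and 30.2% of bins below 0.90, widths were like those of D at 50 minutes. Their medians were 21 and 23.5 kb, the widest measured 145 and 140 kb, and 30 and 29 were over 40 kb. In D the median width was 12 kb at 60 minutes and 6 kb at 70 minutes, with a widest valley of 116 kb at 60 and 16 kb at 70 minutes. Bins that the tables do not list broke some runs, which made 52 of the 190 valley edges of D at 50 minutes and 3 of the 40 of A. With valleys up to 5 kb apart joined, the numbers at 50 minutes were 59 in D, 47 in C, 59 in B and 16 in A, and D at 60 minutes had 40. The order of the numbers at 50 minutes also depended on the limit, since at 0.95 there were 103 in D, 102 in C, 123 in B and 104 in A.

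The numbers also depend on the scale. In D at 50 minutes 28.4% of bins were above 1.11 times their 80-minute level, the mirror of the limit, against 0.515% in C, 0.577% in B and 0.0533% in A. In D at 60 minutes the mirror share was 0.604%. At 45 minutes, with 30.7% and 30.2% of bins below 0.90, the mirror share was 22.9% in C and 23.8% in B. The 90th percentile of each library was also used in place of the median. The share below 0.90 at 50 minutes was then 61.0% in D, 18.2% in C and 23.2% in B, and at 60 minutes 25.1% in D. With the ratios as deposited it was 53.8% in D, 12.3% in C and 37.0% in B at 50 minutes. At 60 minutes it was then 29.4% in D and 3.2% in B. The closeness of D at 60 minutes to C and B at 50 minutes thus depended on the scale. These scales moved the median relative level of all bins in D at 50 minutes to 0.852 and 0.883, against 0.999 with the library median. Strain D was above C, B and A at 50, 60 and 70 minutes under every one of the alternatives run for that share, 10 at each of 50 and 60 minutes and 9 at 70 minutes, and C was below B at 50 minutes in 10 of 10.

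The valleys were spread unevenly over the 16 chromosomes. In D at 50 minutes the share of bins below 0.90 ran from 3.48% on chromosome V to 56.9% on IV, with 56.4% on XIV. At 60 minutes D had 32.9% on XIV, 29.4% on IV and 21.0% on II, and 0 on V and IX. Chromosomes VI, XIV and IV were the 3 highest of C at 50 minutes, with 27.3%, 24.7% and 22.6%, and of B, with 27.3%, 29.4% and 25.8%. In A chromosome IV was highest with 6.21%, and XIV had 2.23%. Chromosome IX had 0 in C, 1.98% in B and 0 in A. At 50 minutes the share of D was above that of C on 16 chromosomes, above B on 15 and above A on 16, and C was above B on 3.

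**Figure D2:**
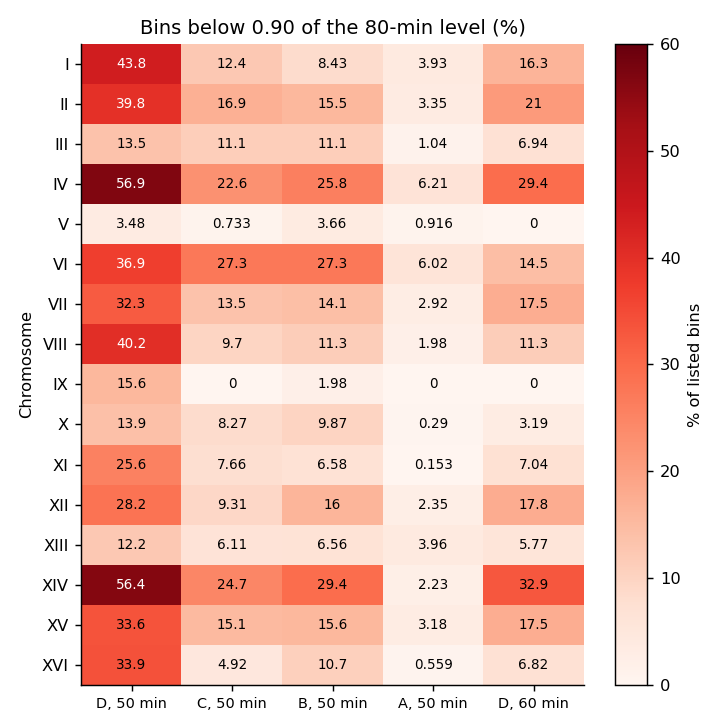
Percentage of listed 1-kb bins below 0.90 of the 80-minute level on each of the 16 chromosomes (rows) in strains D, C, B and A at 50 minutes and in D at 60 minutes (columns), with darker red for higher shares, 1 library per column. Chromosomes IV and XIV are among the 3 highest in each column except that of A, where XIV has 2.23%, and V is at or below 3.66% in every column.

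The 10 valleys of largest deficit in D at 60 minutes held 47.7% of the whole deficit of that library, where the deficit is the sum over bins of 1 minus the relative level. The 4 largest were 82 to 116 kb wide. The widest, on chromosome XIV from 131001 to 247000 (sacCer3 coordinates), had its lowest bin at 221001 to 222000 over JJJ1, which encodes a J-domain co-chaperone of large ribosomal subunit assembly. Here and below, a gene is said to lie over the lowest bin, or floor, where it covers its centre, and otherwise the nearest gene is named. The deposited ratio of that bin was 1.41 in D at 60 minutes and 1.95 in D at 80 minutes. Averaged over the valley, the relative level at 50, 60 and 70 minutes was 0.771, 0.836 and 0.968 in D, 0.866, 0.985 and 1.005 in C, 0.86, 0.97 and 0.991 in B, and 0.948, 0.993 and 1.002 in A. The valley was chosen for the low level of D at 60 minutes, so that value is a description. The only valley of B at 60 minutes, at 218001 to 223000, covered the lowest bin of D and had its own floor of 0.883 in the adjacent bin.

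The valley on chromosome XII from 810001 to 912000 was the deepest at 60 minutes, with a relative level of 0.724 in its lowest bin, whose centre lies in the open reading frame YLR365W. Its mean at 50, 60 and 70 minutes was 0.792, 0.817 and 0.986 in D, 0.845, 0.998 and 1.039 in C, 0.855, 0.966 and 0.991 in B, and 0.955, 1.012 and 1.015 in A. Valleys of large deficit lay here in C and B at 50 minutes as well. C had one from 829001 to 882000 with a floor of 0.697 nearest MDM30, an F-box protein gene of mitochondrial fusion. B had one from 830001 to 883000 with a floor of 0.702 over STE11, a kinase gene of the pheromone response. In all 4 strains at 50 minutes the bins from 844001 to 861000 belonged to a valley, with mean levels of 0.76 in D, 0.709 in C, 0.733 in B and 0.867 in A.

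The left arm of chromosome VII was low from 30001 to 136000, with its floor of 0.799 over SIP2, a beta subunit of the Snf1 kinase. Here the mean at 50, 60 and 70 minutes was 0.799, 0.846 and 0.958 in D, 0.89, 0.981 and 0.982 in C, 0.892, 0.968 and 0.992 in B, and 0.966, 0.987 and 0.995 in A. No bin of this stretch was below 0.90 in A at 50 minutes, while 54 of its 106 kb were in C and 60 in B. On chromosome IV, 651001 to 733000 had a floor of 0.774 over YDR109C, and 760001 to 803000 one of 0.772 over SEC5, which encodes a subunit of the exocyst. Over the first of these, A at 50 minutes had a mean of 0.933 with 15 of 82 kb below the limit, and over the second 0.908 with 17 of 43 kb below it.

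Chromosome XIII from 701001 to 750000 held valleys in every strain at 50 minutes. The floor of D at 60 minutes, 0.791, was nearest RRP5, a gene of ribosomal RNA processing. The mean at 50, 60 and 70 minutes was 0.756, 0.842 and 0.993 in D, 0.789, 0.951 and 1.005 in C, 0.8, 0.939 and 0.994 in B, and 0.872, 0.976 and 0.996 in A. The valley of largest deficit in B at 50 minutes (692001 to 750000, floor 0.75) covered the same stretch, and so did one of A (707001 to 735000, floor 0.804), whose floor had its centre in MRE11, a nuclease gene of double-strand break repair. Here D at 60 minutes and A at 50 minutes had means of 0.842 and 0.872, whereas in the SIP2 valley they had 0.846 and 0.966.

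The other named valleys of D at 60 minutes were 37 to 46 kb wide with floors of 0.758 to 0.808. They were on chromosome II (537001 to 583000, nearest IFA38, a ketoreductase gene of very-long-chain fatty acid elongation), XV (710001 to 747000, PEX27, a gene of peroxisome size and number), IV (1481001 to 1523000, the small nucleolar RNA gene SNR84) and VII (1002001 to 1043000, nearest YGR266W). The one on VII overlapped valleys in the other strains at 50 minutes: 1009001 to 1059000 in C, with a floor of 0.712 over the RNA helicase gene SLH1, 1016001 to 1060000 in B, with a floor of 0.716 over TAF1, a subunit gene of TFIID, and 1024001 to 1054000 in A, with a floor of 0.81 over SLH1. The valley of C on II (524001 to 579000) had a floor of 0.752 over CNS1, an Hsp90 co-chaperone gene. A further valley of A lay on IV from 828001 to 847000, with a floor of 0.857 nearest ATC1.

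**Figure D3:**
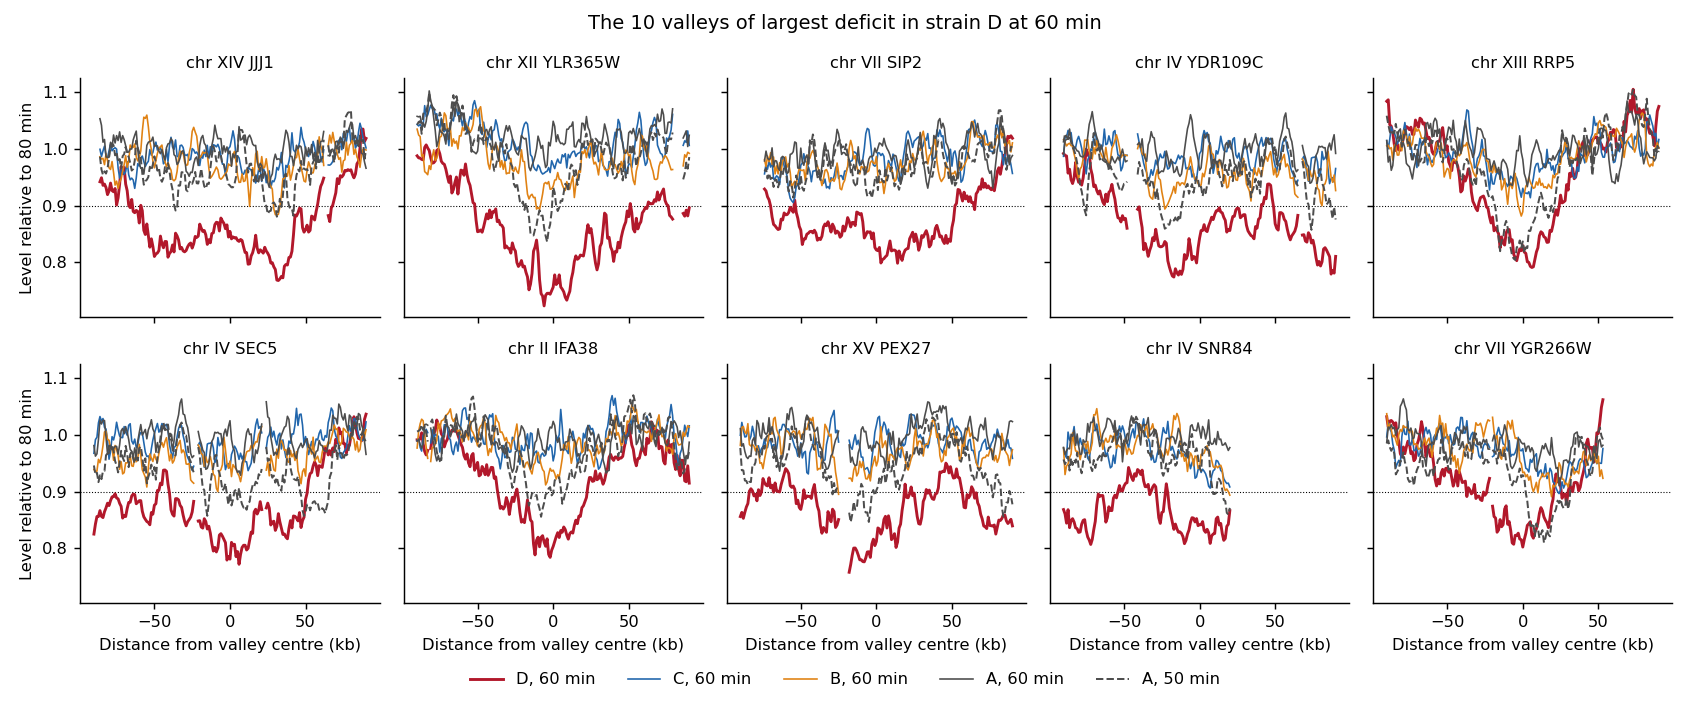
Relative level (5-kb mean over the 80-minute level of the same strain) against distance from the valley centre in kb, for the 10 valleys of largest deficit in strain D at 60 minutes, with D, C, B and A at 60 minutes (solid) and A at 50 minutes (dashed). Panels carry the chromosome and the gene in or nearest the lowest bin, the dotted line marks 0.90, and gaps are unlisted bins. The red line of D reaches 0.724 to 0.808, below C, B and A at 60 minutes in each panel.

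Valleys of different strains coincided in position. All 20 valleys of A at 50 minutes touched a valley of D, of C and of B, and 98.6%, 98.6% and 100.0% of their bins lay in them, where the valleys of D, C and B covered 31.3%, 11.1% and 13.1% of all bins. Of the 64 valleys of C, 63 touched one of D and 59 one of B, and of the 74 of B, 72 touched one of D and 54 one of C. Read from the side of D, 38 of its 95 valleys touched one of C, 46 one of B and 14 one of A. There were 20 stretches, with 215 bins in all, that lay in valleys of all 4 strains at 50 minutes. The strains share no library, and the shares of bins follow in part from how much of the genome each list covers.

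Lists of like extent on the library-median scale were also set side by side. Strain A at 45 minutes, a library added after the other shares had been seen, had 12.9% of bins below 0.90 and 70 valleys. Of the valley bins of D at 60 minutes, 62.5% lay in valleys of C at 50 minutes, 65.1% in those of B at 50 minutes and 51.7% in those of A at 45 minutes. Of the valley bins of C and B at 50 minutes and of A at 45 minutes, 77.7%, 68.5% and 59.9% lay in valleys of D at 60 minutes. Between strains other than D, 87.0% of the valley bins of C lay in those of B and 73.7% the other way round, 77.3% of those of C lay in those of A and 72.1% the other way, and 72.7% of those of B lay in those of A and 80.0% the other way. The pairing of D with A had the smallest share in both directions.

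Of the 68 valleys of D at 60 minutes, 15 touched none of C, B and A at 50 minutes, nor of A at 45 minutes. They were narrow, with a median width of 6 kb and a maximum of 10 kb, and together covered 95 kb. Their median level was 0.881 in D at 60 minutes, 0.934 in C, 0.925 in B and 0.979 in A at 50 minutes, and 0.959 in A at 45 minutes. The levels of C and B in them were thus only just above the limit. Being chosen by the lack of overlap, these valleys are described and not compared further.

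Nearly all of the DNA in valleys had passed the limit 10 minutes later in C, B and A, but not in D. Of the DNA in valleys at 50 minutes, 47.5% was still below 0.90 at 60 minutes in D, 0.32% in C, 2.31% in B and 0 in A, and at 70 minutes the shares were 4.4% in D, 0.56% in C, 0 in B and 0 in A. The median over valleys of their mean level at 50, 60 and 70 minutes was 0.838, 0.94 and 0.981 in D, 0.866, 0.979 and 0.99 in C, 0.864, 0.964 and 0.987 in B, and 0.874, 0.978 and 0.991 in A. In D, 51 of the 95 valleys had no bin below the limit at 60 minutes and 71 had none at 70 minutes. The strains also started from unlike shares at 50 minutes, with 32.5% of bins below 0.90 in D, 12.4% in C, 14.5% in B and 2.66% in A. From 60 to 70 minutes the share of D fell from 14.9% to 1.74%. Slower filling and a later start of the same course were not told apart here. The minutes of 1 strain share its 80-minute library, so these levels are not independent of each other.

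**Figure D4:**
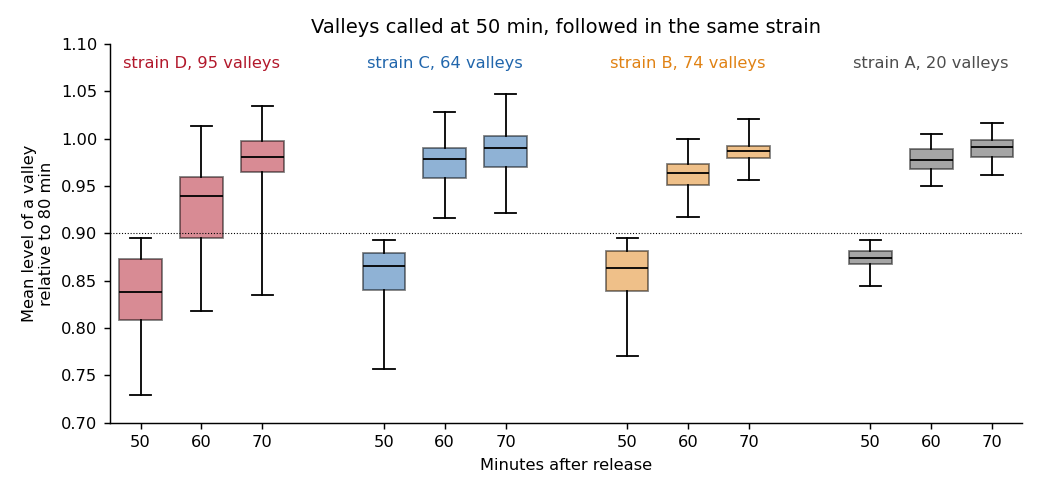
Mean relative level of each valley called at 50 minutes, at 50, 60 and 70 minutes in the same strain, for 95 valleys of D, 64 of C, 74 of B and 20 of A. Boxes give the quartiles, lines in boxes the median and whiskers the lowest and highest valley, and the dotted line is 0.90. Only in D did valleys keep a mean below 0.90 at 60 minutes (25 of 95) and at 70 minutes (3 of 95).

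Of the 95 valleys of D at 50 minutes, 58 touched no valley at 60 minutes, 17 touched more than 1 and 20 touched 1. Among these 20, 16 edges not set by unlisted bins could be followed, and they lay 3 to 45 kb further inward at 60 minutes, with a median of 13.5 kb. With the 90th percentile as the scale, 20 edges could be followed, and the inward distance was 11 to 59 kb with a median of 28 kb. The direction is in part fixed by following only valleys still called at 60 minutes, and the others give no distance. The distance is that of an edge at a fixed level in a population of cells, and its size depended on the scale.

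The 17 valleys of D at 70 minutes lay mostly near chromosome ends. Of these, 15 came within 30 kb of the outermost bin listed at a chromosome end, and 85.7% of all bins below the limit lay in that zone, which holds 7.66% of the listed bins. At 50 and 60 minutes 11.3% and 13.6% of such bins of D lay there. Of the 27 bins of C below the limit at 70 minutes, 92.6% lay there too, though they formed no valley, while B and A had 1 such bin each. The 5 of largest deficit were on chromosome VII (9001 to 25000, nearest YGL258W-A), IV (1507001 to 1523000, nearest IRC4), XI (648001 to 659000, nearest the transporter gene VBA5), I (2001 to 11000, YAL067W-A) and VI (15001 to 24000, nearest AAD6, an aryl-alcohol dehydrogenase gene). Their mean levels at 70 minutes were 0.868, 0.87, 0.847, 0.826 and 0.855 in D, and over the same bins C had 0.939 to 0.979, B 0.944 to 1.004 and A 0.961 to 1.003. The 2 valleys outside that 30-kb zone were at 83001 to 89000 on VII, with a mean of 0.887 in D, and at 744001 to 750000 on XIV, with 0.888.

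Many of the 17 valleys of D at 70 minutes had been low earlier. The mean level was below 0.90 in 14 of the 17 at 50 minutes and in 12 at 60 minutes, and in 3 it was at or above 0.90 at both. The 80-minute library of D moved with this result. Its ratio over the library median was above 1 in 16 of the 17 valleys, with a range of 0.984 to 1.103 and a median of 1.042, against 0.866 to 0.957 and 0.911 at 70 minutes. Without the division by the 80-minute level, 7 of the 17 averaged below 0.90 at 70 minutes. The median ratio of end bins over that of other bins was 0.977 in D at 70 minutes and 1.039 at 80 minutes, and at those minutes 0.993 and 1.034 in C, 0.992 and 0.993 in B, and 1.008 and 1.017 in A. The part of the 80-minute library in the end valleys was not tested, and without the end zone 0.269% of bins of D were below the limit at 70 minutes. Whether low ends became more numerous in D between 60 and 70 minutes depended on the measure. Of 32 ends, those with at least 5 kb below 0.90 numbered 18, 9 and 15 at 50, 60 and 70 minutes. Those with a median below 0.90 numbered 15, 10 and 4. The share of end bins of D below 0.90 was 47.7%, 26.5% and 19.4%. At some ends of D relative levels thus did not only rise with time, and the reason was not tested.

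**Figure D5:**
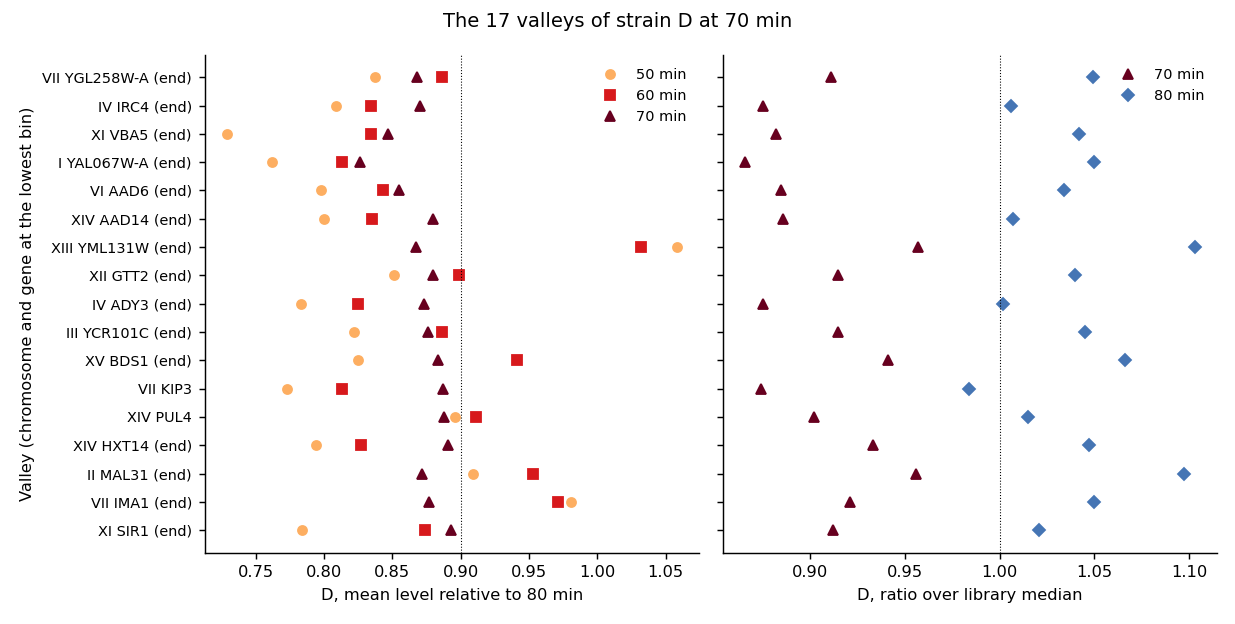
The 17 valleys of strain D at 70 minutes, 1 per row with the chromosome and the gene in or nearest its lowest bin. Left, mean level relative to 80 minutes at 50, 60 and 70 minutes, with the dotted line at 0.90. Right, mean ratio over the library median at 70 and 80 minutes, with the dotted line at 1.0, where 16 of the 17 values at 80 minutes lie above the line.

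The chromosome ends were also low at 50 minutes in D, C and B. Valleys at ends numbered 24 of 95 in D, 19 of 64 in C, 19 of 74 in B and 2 of 20 in A. In the end zone, within 30 kb of the outermost listed bins, 47.7% of bins of D were below 0.90, against 31.2% of its other bins. The shares were 28.8% against 11.1% in C, 33.9% against 12.8% in B and 3.82% against 2.57% in A. Of the 32 ends, 18 had at least 5 kb below 0.90 in D, 11 in C, 17 in B and 3 in A. The lowest bins of D, C and B at 50 minutes were all at the right end of chromosome VI, over YFR057W in C and B and nearest to it in D, with levels of 0.613 in D, 0.567 in C and 0.64 in B. At 60 minutes the mean over the valley of D there (244001 to 270000) was 1.002 in D, so this end was not among its valleys at that minute. At 70 minutes, however, the median of that end zone was 0.92 in D with 5 kb below 0.90, against 1.005 and 0 kb at 60 minutes.

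The libraries from 25 to 45 minutes, which played no part in choosing the valleys, were also low in them by 40 minutes. In the valleys of D at 60 minutes the median of the ratio over the library median was 1.007 at 25 minutes, 1.026 at 30, 0.987 at 35, 0.921 at 40 and 0.849 at 45 minutes, against 1.035 elsewhere at 45 minutes. In the valleys of C at 50 minutes it was 1.065 at 25 minutes and 0.732 at 40 minutes, against 1.037 elsewhere at 40 minutes. At 40 minutes it was 0.808 in the valleys of B, against 1.047 elsewhere, and 0.67 in the valleys of A, against 1.008 elsewhere. Each of these is read within 1 culture and its own G1 library, which the ratio at 80 minutes also shares.

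The genes in valleys were counted from the RefSeq annotation of assembly R64. Protein-coding genes were as dense in valleys as in all listed bins, with 50.1 per 100 kb in the 50-minute valleys of D, 48.9 in those of C, 49.7 in those of B and 51.8 in those of A, against 50.6 overall. Genes for tRNAs, which carry amino acids to the ribosome, were sparser, with 1.05 per 100 kb in D, 0.721 in C, 0.611 in B and 0.909 in A at 50 minutes and 1.03 in D at 60 minutes, against 2.29 overall. These counts rest on 37, 9, 9, 2 and 16 tRNA genes of 258, and they describe the valleys without a test.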

How the data were processed

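Repli-seq libraries of 4 strains at 11 time points were used, 44 in all, and the 24 chromatin immunoprecipitation samples were not analysed here. Per the file headers, the authors divided reads per 1-kb bin of each S-phase library by those of the G1 library of its strain and multiplied by a scale factor, and the deposited values are these ratios. Per the submitters' processing notes, Bowtie2 2.2.6, SAMtools 1.7.2, bedtools 2.26.0 and the build sacCer3 were named, with no role or order. How the factor was set is not given in the sources used here, and depth is unknown.

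The 11277 bins listed in all 44 tables entered. Ratios were divided by the library median, averaged over 5 kb with at least 3 bins listed (11260 bins kept) and divided by the 80-minute value, in which the shared G1 library cancels. A valley was at least 5 adjacent bins below 0.90, its deficit the sum of 1 minus the level, and an end valley one within 30 kb of an outermost listed bin. The valley calling was also run on simulated data, with isolated valleys on a flat profile away from unlisted bins. The simulation did not cover a partly replicated median or valleys cut by unlisted bins. With 1 library per strain and minute no test was run. The members, limits and lists were chosen with earlier results of these data known. Named valleys are the 10 of largest deficit in D at 60 minutes, 3 each in C, B and A at 50 minutes and 5 in D at 70 minutes, each with the gene at or nearest the lowest bin. Origins and centromeres were not used here. Alternatives changed the limit, the window, the scale, the 80-minute division, the ends, the run length and the joining and overlap of valleys. Work was done in Python 3.11.15 with numpy 2.4.6, pandas 2.3.3 and matplotlib 3.10.9.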

Additional observations from a re-analysis of the deposited data

How the results depend on the processing

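No paired analysis was possible because each strain and minute had 1 library with no replicate number. Of 224 values recomputed under alternatives, 131 kept their size and 93 moved, 50 of them with another limit. A share of bins or a number of valleys kept its size if it changed by a factor of at most 1.5. Values of 0 that stayed 0 counted as kept. An overlap share kept its size if it stayed in a Wilson interval that treats valleys as independent. In percent of bins, a 3-kb window gave 0.195 and 0.71 in C and 0.586 and 0.0976 in B at 60 and 70 minutes, and 0.0444 and 0.0799 in A. A 9-kb window gave 0 in C at 60 minutes, in B at 70 minutes and in A at 60 and 70 minutes, 0.0888 in C at 70 minutes and 0.0444 in B at 60 minutes. The 70-minute library as reference gave 0.0799 in C and 0.071 in B at 60 minutes. No reference gave 0.115 in C and 0.0 in B at 70 minutes and 0.0266 in A at 60 minutes. The 90th percentile gave 61.0 and 25.1 in D at 50 and 60 minutes, 23.2 in B at 50 minutes and 100 valleys in C at 50 minutes. The deposited factors gave 53.8 and 29.4 in D at 50 and 60 minutes, 37.0 and 3.2 in B, 0 and 0.00888 in C at 60 and 70 minutes and 0 in A at both. Without ends D had 0.269 at 70 minutes, C 0.0192 at 60 and 70 minutes and A 0.

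A limit of 0.85 gave 5.93 and 0.195 in D at 60 and 70 minutes, 5.43, 6.44 and 0.4 in C, B and A at 50 minutes, and 0 in C, B and A at 60 and 70 minutes. It left 38 and 2 valleys in D at 60 and 70 minutes, 33, 35 and 3 in C, B and A at 50 minutes and 0 in B at 60 minutes. Then 26.9%, 34.6% and 2.88% of the 50-minute valleys of D touched one of C, B and A, 100.0% of those of C and of B touched one of D, and 9.09% of those of C and 8.57% of those of B touched one of A. A limit of 0.95 gave 27.0 and 10.6 in D at 60 and 70 minutes, 25.2, 4.7 and 6.08 in C and 28.5, 6.33 and 2.12 in B at 50, 60 and 70 minutes, and 12.7, 2.26 and 1.49 in A. It gave 103 and 78 valleys in D at 50 and 70 minutes, and at 50, 60 and 70 minutes 102, 28 and 42 in C, 123, 44 and 2 in B and 104, 5 and 4 in A, so that D no longer had the most at 50 minutes. Then 60.2%, 68.0% and 45.6% of the valleys of D touched one of C, B and A, and 56.9% of those of C and 44.7% of those of B touched one of A.

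A minimum of 10 bins left 43 and 3 valleys in D at 60 and 70 minutes, 0 in B at 60 minutes and 7 in A at 50 minutes. A minimum of 3 bins gave 4 in C at 70 minutes, 4 in B at 60 minutes and 31 in A at 50 minutes. Joining valleys within 5 kb gave 59 and 40 in D at 50 and 60 minutes. The library mean, and an overlap of 50% of the shorter valley, moved no value. Shares under 1% rest on few bins, and the spread between cultures is unknown.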

Other observations

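The 80-minute libraries themselves were nearly flat. In D, 17 bins were below 0.90 of the library median, of which 9 formed 1 run on chromosome XII from 443001 to 452000 with a lowest level of 0.848. C had 9 such bins, of which 8 formed a run from 444001 to 452000 with a lowest level of 0.832. B had 2 such bins and A had 1, with no run in either. The runs end at 452000, short of the stretch between 460000 and 490001, where no bin is listed in all libraries. The ribosomal RNA gene array of yeast lies in this part of the chromosome. Over the bins of the D run, the mean ratio over the library median at 80 minutes was 0.865 in D, 0.877 in C, 0.979 in B and 0.941 in A. From 15 to 70 minutes it lay between 0.845 and 0.98 in D, between 0.915 and 1.057 in C, between 0.958 and 1.083 in B and between 0.913 and 1.069 in A. Dividing by the 80-minute level therefore raises the relative level of these bins at 50 to 70 minutes in D and C, and they formed no valley of those strains.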
